A study of Mus musculus with 2 samples.

Results

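The Bcl2 family genes described here are 10 genes that set whether a cell survives or dies by the mitochondrial route, namely Bcl2, Bcl2l1, Mcl1, Bax, Bak1, Bcl2l11, Bid, Bad, Bbc3 and Pmaip1. They were followed through every probe set that the platform annotation gives to exactly 1 of them, which came to 29 of the 45101 probe sets on the array and to 9 of the 10 genes. The annotation used here gives no such probe set to Bax, which was therefore not analysed here. The 9 genes stand among 18193 genes with at least 1 such probe set.

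Members of the family meet at the outer membrane of the mitochondrion. Bax and Bak1 are the effectors, which assemble in that membrane and make it leaky, so that cytochrome c escapes and caspases are activated. Bcl2, Bcl2l1 (Bcl-xL) and Mcl1 are survival proteins that hold the effectors and their activators in check, and the BH3-only proteins Bcl2l11 (Bim), Bid, Bad, Bbc3 (Puma) and Pmaip1 (Noxa) relay death signals by binding the survival proteins or the effectors. In blood vessels, loss of endothelial cells by apoptosis is a known part of vessel pruning, and several growth factors of endothelium are known to keep these cells alive.

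Both arrays of the series belong to 1 group, with no control or comparison group. Each was hybridised with RNA of GFP-positive cells sorted from a pool of approximately 5 to 10 kidneys of CD-1 mouse fetuses at E15.5 (Theiler stage 23) that carried GFP under the Tie2 promoter, after digestion with trypsin, and the RNA went through 2 rounds of amplification. The samples are titled FLK1 although the reporter is Tie2-GFP, and their source is given as the lining of the renal artery and vein although whole kidneys were dissociated. The labels number the samples 1 and 2 without saying that the pools came from separate litters, so the spread between them may be technical.

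Values are deposited intensities in arbitrary units, 1 per probe set, given for replicate 1 and then replicate 2. A probe set was called above background where it exceeded, on both arrays, the 95th percentile of 87 probe sets of sensory receptor genes (olfactory, vomeronasal, trace amine and taste receptors), which was 200.5 and 203.8. Differences are log2 of replicate 1 minus replicate 2 after the arrays were given a shared median, a step that removed an offset of -0.03. Over all probe sets above background that have 1 gene, these differences had an SD of 0.51 and a median size of 0.30. With 1 group there was no test, and since brightness depends on a probe set's sequence, no gene's intensity is read as higher or lower than another gene's.

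The sorted cells carried the marks of endothelium and also of macrophages, and markers of renal stroma differed between the arrays. All 15 measured pan-endothelial genes were above background, among them Tek at 15908 and 21499, Kdr at 8939 and 12139, Cdh5 at 22435 and 20733 and Tie1 at 4141 and 3898. Of 14 renal stromal genes 12 were above background and all 12 were brighter in replicate 2, by a median difference of -1.92. The summed intensities of all 14 were 28685 and 99812. All 12 macrophage genes were above background, with sums of 99663 and 119791. Among them Csf1r gave 34030 and 36806, Adgre1 4305 and 7632, Cd68 2358 and 2218 and Lyz2 8262 and 8857. Above background too were 4 of 13 nephron and ureteric genes and 5 of 8 erythroid genes, with the globin Hbb-y at 55397 and 48789. The part of any of these cells in the values below was not tested. The RNA is that of whole sorted pools, so fewer cells that use a gene and less of its RNA per cell cannot be told apart.

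Of the 29 member probe sets 21 (72.4%) were above background on both arrays, against 55.1% of all probe sets with 1 gene. By gene, 8 of the 9 measured members were above background through their brightest probe set, against 61.1% of all genes. The exception was Bak1. A gene with more probe sets has more chances to pass, and members had 29 for 9 genes against 34945 for 18193 genes in all. Above background were 12 of 15 probe sets of the survival genes Bcl2, Bcl2l1 and Mcl1, 0 of 2 of the effector Bak1, and 9 of 12 of the BH3-only genes. Of the other probe sets 2 passed the limit on 1 array and 6 on neither.

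**Figure D1:**
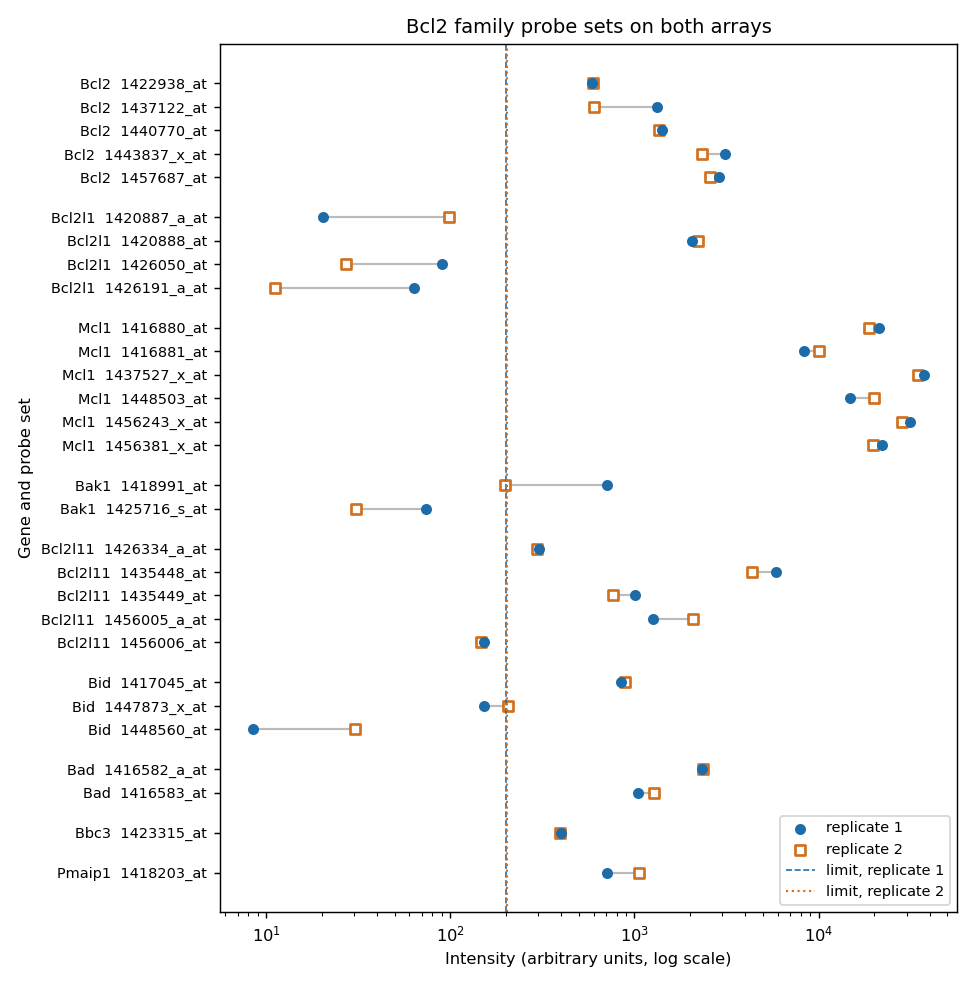
Intensity of the 29 probe sets of 9 Bcl2 family genes on each array, on a log axis in arbitrary units, with the background limit of each array (200.5 and 203.8). Mcl1 lies far to the right of the limit on both arrays, whereas the probe sets of Bcl2l1, Bid and Bcl2l11 fall on both sides of it.

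Promoters are shown for the 3 members with a window, the 250 bases before a start, that holds the forkhead or ETS letters given below. Forkhead factors are known regulators of Bcl2l11 and Bbc3, and ETS factors are central to endothelium. Shorter or variant forms of these letters were not searched for. The sequences are from RefSeq on GRCm38.p6, 5′ to 3′ along the gene, in lower case with capitals for the forkhead letters GTAAACA or the ETS letters CCGGAAG, or either of these read on the other strand.
Bcl2l11, chr2:128125788-128126037, + strand: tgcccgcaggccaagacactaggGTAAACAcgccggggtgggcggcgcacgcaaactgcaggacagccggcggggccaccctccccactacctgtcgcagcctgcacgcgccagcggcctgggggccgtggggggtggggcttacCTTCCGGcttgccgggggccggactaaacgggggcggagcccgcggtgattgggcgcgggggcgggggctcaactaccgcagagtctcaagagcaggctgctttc
Bbc3, chr7:16310011-16310260, + strand: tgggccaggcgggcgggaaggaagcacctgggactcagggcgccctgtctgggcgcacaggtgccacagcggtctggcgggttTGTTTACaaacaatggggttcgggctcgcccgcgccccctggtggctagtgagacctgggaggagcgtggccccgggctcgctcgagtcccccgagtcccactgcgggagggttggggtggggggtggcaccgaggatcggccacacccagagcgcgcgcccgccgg
Mcl1, chr3:95658471-95658720, + strand: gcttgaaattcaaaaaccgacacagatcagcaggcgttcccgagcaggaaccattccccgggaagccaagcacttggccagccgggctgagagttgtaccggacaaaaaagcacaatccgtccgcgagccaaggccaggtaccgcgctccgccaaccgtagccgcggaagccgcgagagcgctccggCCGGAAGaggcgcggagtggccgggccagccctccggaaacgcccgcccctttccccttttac
In positions counted back from the base just before the start, Bcl2l11 held the forkhead letters at -227 and the ETS letters at -105, Bbc3 the forkhead letters at -167 and Mcl1 the ETS letters at -63. The table held 15 windows for 9 of the 10 members, Bax included and Pmaip1 not, since a gene with several starts has several windows. Each of these motifs occurred in 2 of the 15 windows, against 3.17% of 32851 windows for forkhead and 6.91% for ETS. By gene each occurred in 2 of 9 members, against 3.54% of 27025 genes for forkhead and 7.83% for ETS, and a gene with more windows has more room for a match. The shorter GC box letters GGGCGG, read on both strands and not capitalised, occurred in 10 of 15 member windows against 32.7% of all windows, and the median GC content of member windows was 64.4% against 52.4% of all windows. The motifs were chosen with the sequences in view, a match is no evidence of binding, and these arrays measured no binding.

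Mcl1, a short-lived survival protein whose level is set by rapid turnover, was measured by 6 probe sets, all of them above background. Probe set 1437527_x_at gave 37262 and 34710, 1456243_x_at gave 31173 and 28418, 1456381_x_at gave 21980 and 19742, 1416880_at gave 21135 and 18765, 1448503_at gave 14752 and 19951, and 1416881_at gave 8291 and 10044. They stood at 41.4 to 185.9 times the limit in replicate 1 and 49.3 to 170.3 times in replicate 2. The arrays did not differ in 1 direction for this gene, since 4 of the 6 were brighter in replicate 1 and 2 in replicate 2, with differences of -0.40 to 0.20. All 6 lay inside 1 SD of probe sets in general. Of the 6 probe sets, 3 were designed from 1 transcript record and 3 carry the suffix _x, which the manufacturer gives to sets that may also bind other transcripts.

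Bcl2, the founding survival member of the family, was measured by 5 probe sets, all above background and all brighter in replicate 1 after centring. Probe set 1443837_x_at gave 3091 and 2313, 1457687_at gave 2884 and 2562, 1440770_at gave 1402 and 1366, 1437122_at gave 1328 and 605.7, and 1422938_at gave 591.4 and 595.1. Their differences ran from 0.02 to 1.17. The largest belonged to 1437122_at, 2.24-fold brighter in replicate 1, whereas 1422938_at, 1440770_at and 1457687_at differed by 0.20 or less. The deposited values of 1422938_at were higher in replicate 2 and its sign depended on the centring.

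Bcl2l1, which encodes Bcl-xL and, by alternative splicing, a shorter form that promotes death, was detected by 1 of its 4 probe sets. Probe set 1420888_at gave 2047 and 2207, a difference of -0.08. The other three were far below the limit on both arrays, at 20.3 and 97.8 for 1420887_a_at, 90.1 and 27.1 for 1426050_at, and 63.1 and 11.2 for 1426191_a_at. Probe sets 1420887_a_at and 1420888_at were designed from the same transcript record and still fell on opposite sides of the limit. Where on the transcript each lies was not analysed here, so a probe set below the limit does not show that the transcript was absent.

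The effector Bak1 was not above background on both arrays. Probe set 1418991_at gave 711.3 in replicate 1, 3.55 times the limit, and 198.2 in replicate 2, just under it at 0.973 times. Probe set 1425716_s_at gave 74.0 and 30.6 and passed on neither array. The call for Bak1 thus rested on replicate 2, and without that array Bak1 was called. Its partner effector Bax was not analysed here.

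Of the BH3-only genes, Bcl2l11 had the most probe sets. It encodes Bim, an activator of Bax and Bak1 that is known to be held down by growth factor signalling. Probe set 1435448_at gave 5829 and 4323, 1456005_a_at gave 1255 and 2085, 1435449_at gave 1008 and 760.2, and 1426334_a_at gave 301.8 and 295.7, all above background. Probe set 1456006_at gave 151.7 and 145.9 and was below the limit on both arrays.

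The window printed for it, 1 of the 2 in the table, held both the forkhead and the ETS letters, and the other held neither. Its probe sets did not move together between the pools. Those named 1435448_at and 1435449_at, designed from 1 transcript record, were brighter in replicate 1 by 0.46 and 0.44, whereas 1456005_a_at was brighter in replicate 2 by 1.62-fold, a difference of -0.70. Over all probe sets above background 14.3% differed by at least as much as 1456005_a_at. The pair 1456005_a_at and 1456006_at also shares a design record and was split by the limit.

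Bad, a BH3-only protein that binds Bcl2 and Bcl-xL and is silenced by phosphorylation, was above background with both of its probe sets. Probe set 1416582_a_at gave 2334 and 2367 and 1416583_at gave 1046 and 1278, with differences of 0.01 and -0.26. Both differences were smaller than the SD of probe sets in general, and the sign of the first depended on the centring.

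Bid, the BH3-only protein that caspase-8 cleaves to link death receptors with mitochondria, was above background with 1 of 3 probe sets. Probe set 1417045_at gave 842.1 and 893.4, a difference of -0.05. Probe set 1447873_x_at gave 152.2 and 204.6, which put it at the limit in replicate 2 (1.00 times) and below it in replicate 1. Probe set 1448560_at gave 8.5 and 30.5 although it shares a design record with 1417045_at.

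Bbc3 and Pmaip1, known targets of p53 that encode Puma and Noxa, had 1 probe set each and both were above background. Bbc3 gave 399.6 and 396.4, only 1.99 and 1.95 times the limit and nearly equal on the arrays, with a difference of 0.04. Pmaip1, whose product binds Mcl1 and promotes its breakdown, gave 707.8 and 1061. It was 1.46-fold brighter in replicate 2, a difference of -0.55, and 23.8% of all probe sets above background differed by at least as much.

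Between the pools the members were about as close as other probe sets. Of the 21 member probe sets above background 1 was over 2-fold apart, against 5.00% of all such probe sets, and it was 1437122_at of Bcl2. Of the 21, 18 lay within 0.5 of equality, 14 were brighter in replicate 1 and 7 in replicate 2. The median difference was 0.06 and the SD 0.40, against a median of 0.03 and an SD of 0.51 over all probe sets above background. The survival genes had a median of 0.15 over 12 probe sets and the BH3-only genes 0.01 over 9. Of those 12, 5 were of Bcl2, 6 of Mcl1 and 1 of Bcl2l1. Probe sets of 1 gene are not independent, so these medians are not read as a difference between the roles.

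**Figure D2:**
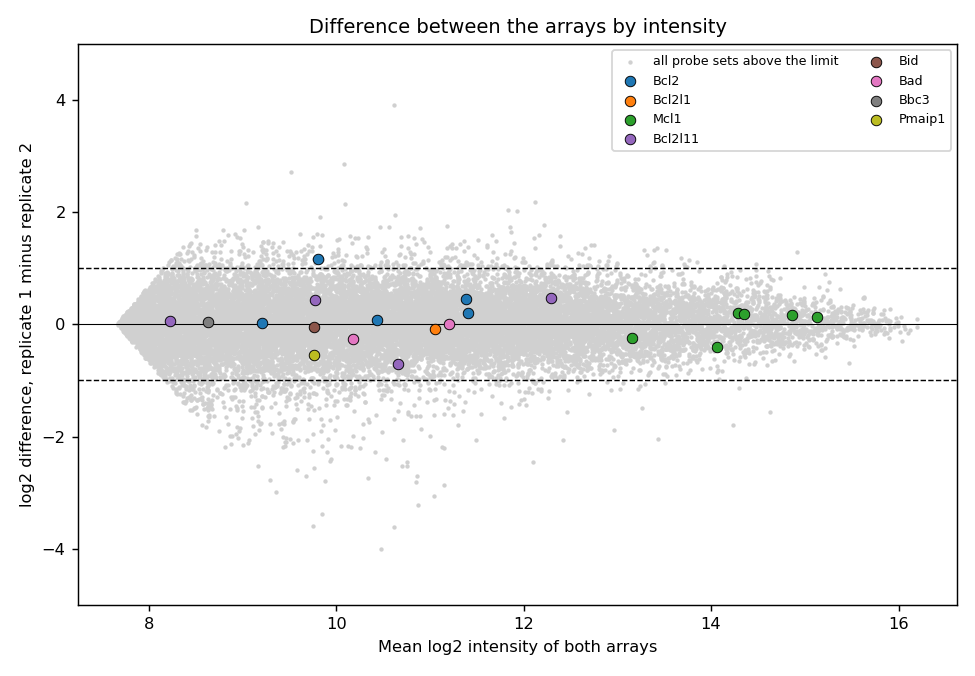
Log2 difference between the arrays, replicate 1 minus replicate 2, against mean log2 intensity for probe sets above background, with members marked by gene. Of the 21 member probe sets 20 lie within 2-fold of equality, and 1437122_at of Bcl2 (1.17) is outside.

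Agreement among probe sets of a gene was a separate matter from agreement between arrays. Of the 7 members with several probe sets, 3 (Bcl2l1, Bcl2l11 and Bid) had some above and some not above background, against 44.2% of the 9010 genes with several probe sets. All probe sets of Bcl2, Mcl1, Bad, Bbc3 and Pmaip1 were above background. Among probe sets with a plain name 14 of 18 member sets were above background, against 51.2% of all such sets. Those of suffix _a, which bind several transcripts of 1 gene, numbered 3 of 5 against 67.8%, those of suffix _x numbered 4 of 5 against 63.2%, and the only member set of suffix _s, that of Bak1, was not above background, against 74.3% above it among all such sets.

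The wider pathway was present at a similar spread. Of 82 measured genes in 8 lists around the family 76 (92.7%) were above background, against 61.1% of all genes. Of the 76, 0 were over 2-fold apart, against 4.82% of all genes above background. That count depends on the cut-off, since Endog (1.999-fold) and Myc (1.977-fold), chosen after their values were seen, fell just short of it. The 4.82% was not matched for brightness. Among probe sets above background the share over 2-fold apart was 6.97% for the dimmest 6415 and 2.43% for the brightest 6416. The 0 is therefore not read as particular to the pathway. The 76 genes had a median difference of 0.06, with 46 brighter in replicate 1 and 30 in replicate 2. Many of these genes are used by most cell types, and here too a gene with more probe sets had more chances to pass.

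Among the other Bcl2 family genes 9 of 11 measured were above background. Bcl2l2, the survival protein Bcl-w, gave 1142 and 1998 (a difference of -0.77), Bok, an effector relative of Bax and Bak1, gave 4847 and 3853, and Bmf, a BH3-only protein tied to the cytoskeleton, gave 2612 and 2530. Bcl2l10 (113.0 and 136.1) and Bcl2l15 (88.4 and 46.1) were below the limit on both arrays.

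Downstream of the mitochondrion all 11 measured genes of caspases and their activating complex were above background. Cycs, the somatic cytochrome c, gave 32435 and 22959, its partner Apaf1 gave 3835 and 4632, and the initiator Casp9 gave 4260 and 4811. Casp6, an executioner caspase, gave 2996 and 2282. All 5 inhibitor of apoptosis genes were above background, with Xiap at 11178 and 8936, Birc2 at 3442 and 4451, Birc3 at 2782 and 3484, and Birc5 at 6960 and 4373. Birc5 encodes survivin, which also works in mitosis.

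Upstream of Bid, 8 of 9 death receptor genes were above background, with the receptor Fas near the limit at 283.1 and 264.4 and its adaptor Fadd at 853.9 and 729.5. Casp8, which cleaves Bid, gave 5755 and 4996. The ligand Fasl was below the limit, at 81.6 and 45.5. A second ligand of the list, Tnfsf10 (TRAIL), chosen after its values were seen, was above it at 301.7 and 396.3.

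Of the transcription factors known to act on BH3-only genes and their regulators 10 of 11 measured were above background. Mdm2 and Mdm4, which restrain p53, gave 2165 and 1968 and 5603 and 6263, and Trp73, a relative of p53, was below the limit at 103.6 and 28.2. Foxo1, a forkhead factor known to switch on Bcl2l11, gave 6762 and 5250. Foxo3, chosen after its values were seen, gave 6046 and 5366.

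Among kinases and binding proteins of Bad and Bim 16 of 17 were above background. Akt1, which phosphorylates Bad and the forkhead factors, gave 4813 and 4167, and Akt2 gave 1307 and 1119. The kinases Pim1 and Pim2 gave 1900 and 2320 and 257.0 and 323.7. The 14-3-3 protein gene Sfn was below the limit at 76.6 and 47.9.

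For the turnover of Mcl1, 6 of 7 genes were above background. The ubiquitin ligases Huwe1 and Fbxw7, which mark Mcl1 for breakdown, gave 15307 and 10590 and 3440 and 4084, and Usp9x, the enzyme that removes the mark, gave 4944 and 5374. Btrc gave 833.9 and 786.3 and Trib1 was below the limit on both arrays at 197.4 and 152.7, close to it only in replicate 1. All 11 mitochondrial partners were above background, with the channel genes Vdac1 at 37252 and 43769, Vdac2 at 26903 and 26648 and Vdac3 at 40496 and 31371, and Mtch2, a receptor for cleaved Bid, at 7134 and 7155.

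**Figure D3:**
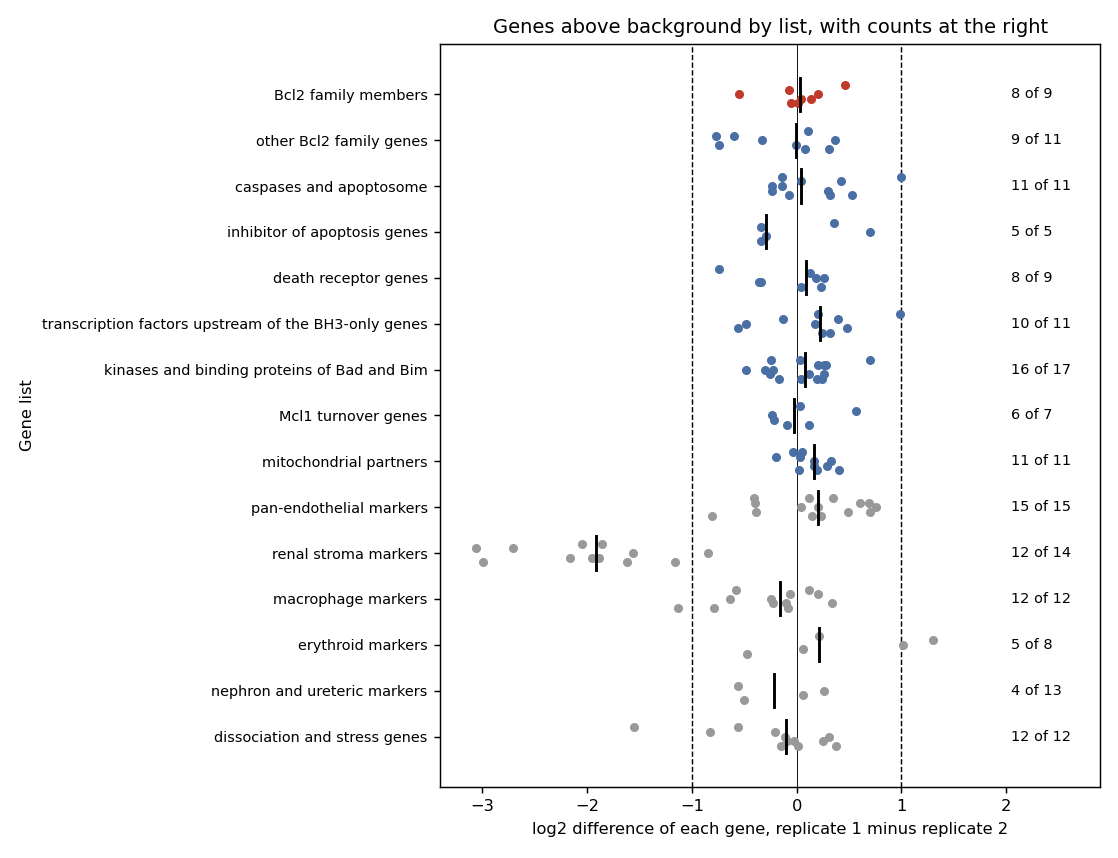
Log2 difference between the arrays, replicate 1 minus replicate 2, for the genes above background in each list, with black marks at the medians and dashed lines at 2-fold. The members (red) and the 8 pathway lists (blue) centre near 0, and of the marker and stress lists (grey) renal stroma lies furthest from 0, with a median of -1.92.

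Genes over 2-fold apart were found in the marker and stress lists. Of the 12 stromal genes above background 11 were over 2-fold brighter in replicate 2, Pdgfra among them at 719.8 and 4811. All 12 genes of the dissociation and stress list were above background. Fos gave 38261 and 45027, Jun 11640 and 17542 and Junb 400.3 and 405.5. In the lists other than stroma, the genes over 2-fold apart were Ptprc (2846 and 6381), the embryonic globins Hbb-bh1 (1127 and 467.1) and Hba-x (972.9 and 491.8), and the early response gene Fosb (1004 and 3020). Of the member probe sets above background 7 were brighter in replicate 2, with differences of -0.70 to -0.05, and 14 were brighter in replicate 1. The parts of stromal RNA and of a dissociation response in the member values were not tested.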

How the data were processed

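The authors deposited intensity values of an Affymetrix mouse 3' expression array, 1 linear value per probe set. The submitters' processing notes name GCOS, the scanner software, with no version. Both arrays had a mean of 1500 after 2% of values was left out on each side, so they had been scaled before deposit. The study's methods describe another array type and were not taken as the methods here. The sources used here do not name the genome build behind the probes.

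Of 45101 probe sets, 34945 had 1 gene, 932 several, 9160 none in the annotation used and 64 were controls, and the gene identifiers of 34741 probe sets were found in the GRCm38.p6 table. For each gene the probe set of highest mean log2 value was used. Ratios of 3' to 5' signal were 3.15 and 3.67 for Actb and 19.5 and 22.3 for Gapdh, so signal was stronger toward the 3' end of both. A probe set below the limit therefore need not mean that its transcript was absent. Precision is limited by the 2 arrays. The genes to be named were all members and the first 4 measured genes of each list. Added to these were up to 3 per list whose call differed from most of it and those over 2-fold apart. Of the stroma list only some of these genes are named, and of the nephron and ureteric list none. Members, lists and motifs were chosen with earlier results of these data known. Alternatives covered the limit, the arrays used, the probe set per gene, the scaling, the filter and a pseudocount of 100. The scripts, tested on simulated data, ran in Python 3.11.15 with numpy 2.4.6, pandas 2.3.3, scipy 1.17.1 and matplotlib 3.10.9.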

Additional observations from a re-analysis of the deposited data

How the results depend on the processing

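Counts of member probe sets above background were 21 with the limit used, 24 with a fixed limit of 100, 20 with the 99th percentile of the sensory receptor probe sets and 19 with 2 times the limit. Shares of all probe sets moved likewise, to 67.9%, 49.7% and 44.2%. Called on either array alone, the count was 22 (against 59.2% of all probe sets without replicate 1 and 58.5% without replicate 2), and Bak1 was called without replicate 2. Genes called numbered 9, 8 and 7 of 9 under the 3 other limits in that order, against 72.7%, 56.7% and 52.5% of all genes, and Bbc3 was lost at the strictest. They numbered 6 when a gene was taken as the median over its probe sets, which lost Bcl2l1 and Bid. Pathway genes called ranged from 58 with plain-named probe sets alone to 78 with the limit of 100. For the median and for plain-named probe sets alone no share of all genes is given. The counts under those settings are therefore not read as particular to these genes. The count of member probe sets over 2-fold apart stayed at 1 under every scaling, the stricter filter and the pseudocount, and was 7 of 29 with no filter, against 20.1% of all probe sets (the SD of probe sets above background on neither array was 1.43). The median difference of members ran from 0.03 to 0.09. Signs changed for 2 probe sets, 1422938_at of Bcl2 and 1416582_a_at of Bad, which stayed between -0.03 and 0.08 under these settings. No paired analysis was possible because there is 1 group.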
